A study of Rattus norvegicus with 6 samples.

Results

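Heat shock proteins and their cochaperones were examined in the ipsilateral lumbar spinal cord of rats with bone cancer pain (BCP) and of sham-operated rats. The group was selected on gene symbol: every row of the gene table whose symbol begins with Hsp or Dnaj, apart from the basement membrane proteoglycan Hspg2, together with Bag1 to Bag6 and the rows that begin with Hsf and a digit, which are the heat shock factors Hsf1, Hsf2, Hsf4 and Hsf5 and the binding protein Hsf2bp. This gave 84 of 30957 rows, of which 72 had enough counts to be tested. No measured value entered the choice of rows, but the group was proposed with earlier results of these libraries known, so its counts below are descriptions.

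Adult female Wistar rats had Walker 256 cells, from a mammary carcinoma of the rat, placed in the marrow space of the left tibia. BCP rats received living cells and sham-operated rats received heat-killed cells, so that both groups had the operation and cell material in the bone. On day 14 the lumbar enlargement was freed of meninges and divided lengthwise, and ribosomal RNA-depleted, strand-specific RNA-seq libraries were made from the injected side, 3 per group. The tissue is a mixture of neurons, glia, vessels and any infiltrating cells, the comparison covers a single time point, and there were no animals without an operation.

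Molecular chaperones hold unfolded or damaged proteins until they can fold or be degraded. HSP70 binds exposed stretches of a client in a cycle of ATP hydrolysis, which J-domain proteins (the Dnaj genes) start and nucleotide exchange factors (HSP110 and BAG proteins) reset, while HSP90 acts on clients nearer to their final shape and small heat shock proteins keep unfolded chains from aggregating. In the cytosol, heat shock factor 1 (Hsf1) raises the inducible members when unfolded proteins accumulate, whereas the endoplasmic reticulum (ER) uses the separate unfolded protein response. In neurons many J-domain proteins serve traffic rather than stress, in clathrin uncoating, endosomal sorting and the synaptic vesicle cycle.

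Of the 72 tested members, 8 were higher and 13 were lower in BCP rats by edgeR's quasi-likelihood test at a Benjamini-Hochberg adjusted p under 0.05, adjusted over all 14908 tested genes. The higher members were 11.1% of those tested, where 15.8% of all tested genes were called higher, and the lower members were 18.1%, where 12.1% of all tested genes were called lower. Only Dnajc22 was more than 2-fold higher and only Hspa1b more than 2-fold lower, 1.39% of the members in each direction, against 6.35% and 0.107% of all tested genes. Dnajc22 had enough counts to be tested only because of its BCP libraries. The 3 BCP libraries lay above the 3 sham libraries for 11 members (15.3%, against 21.7% of all tested genes) and below them for 18 members (25%, against 19.8%). At an unadjusted p under 0.05, 36.1% of the members passed, as did 37.3% of all tested genes.

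Most members differed little between the groups. The log2 fold change (BCP over sham) had a median of -0.031 among tested members and of -0.014 among all tested genes, and 56 of the 72 lay within 0.25 of 0, with a median standard error of 0.0763. The normalized level of a gene in a library is given as CPM, its count scaled to a common library size after TMM normalization. Summed over the 84 members, the CPM of the sham libraries were 7585, 7487 and 7615, those of the BCP libraries were 7492, 7490 and 7345, and the groups overlapped. The counts of called members depended on how libraries were scaled and on single libraries. Scaling by library size alone gave 11 higher and 10 lower members, and scaling by the upper quartile gave 6 and 16. Leaving out sham library 2, sham library 3 or BCP library 2 left 5, 4 and 4 higher members, and leaving out BCP library 2 left 8 lower members.

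**Figure D1:**
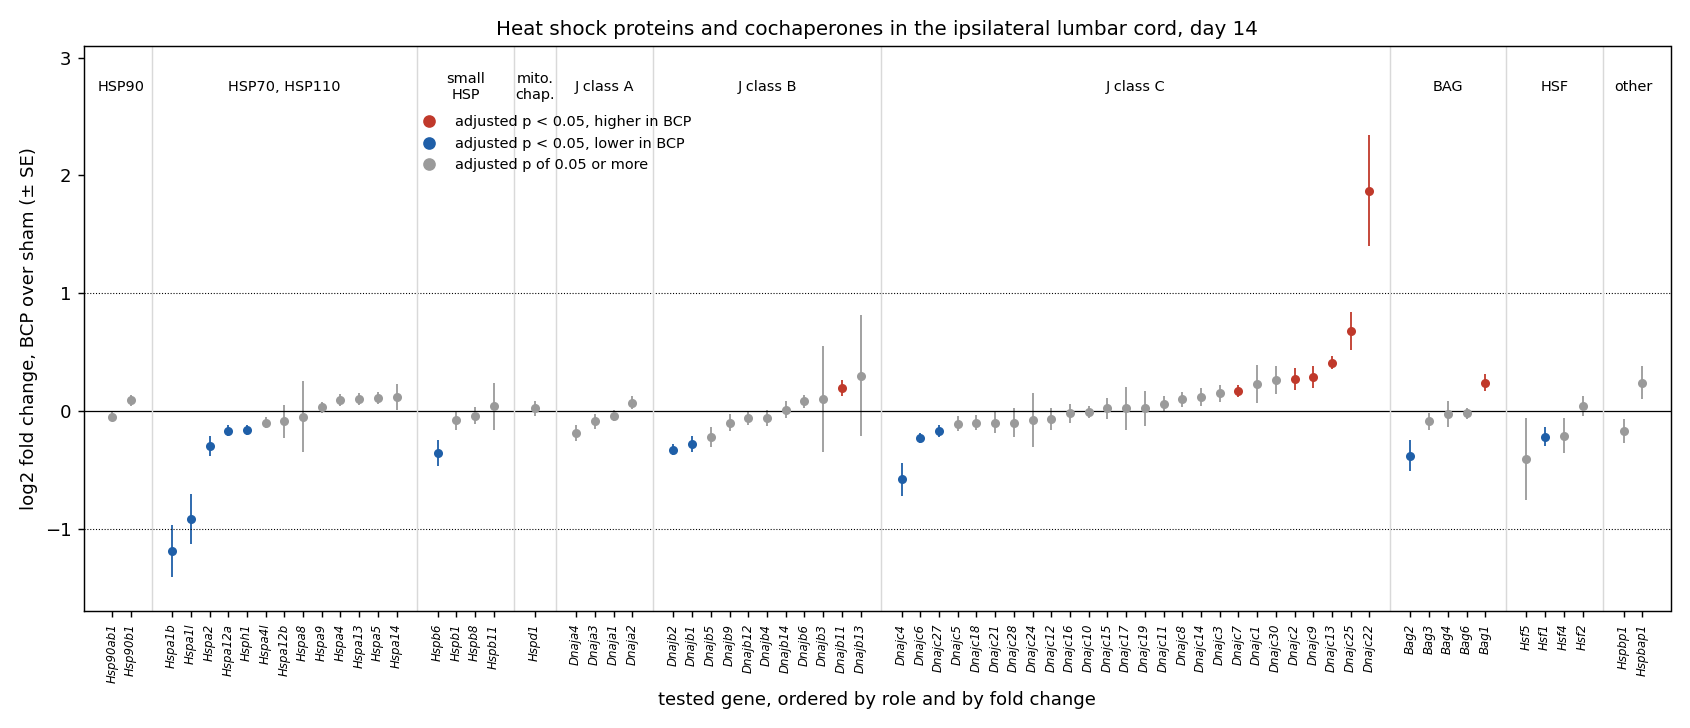
Each point is a tested member, grouped by role and ordered by its log2 fold change in BCP over sham rats (vertical axis, with its standard error), and colour shows the call at an adjusted p under 0.05. The dotted lines mark 2-fold. Hspa1b at -1.19 and Dnajc22 at 1.87 lie outside them, and all other members lie inside.

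Because these libraries come from whole tissue, fewer cells of a type and less RNA per cell cannot be told apart in any of the differences. Markers of cell types also differed between the groups, where 15.8% of all tested genes were called higher and 12.1% lower. All 9 tested oligodendrocyte markers were lower in BCP rats (summed CPM of 40378 to 45760 in sham and 29066 to 32310 in BCP libraries), as were 6 of 11 neuron markers (10914 to 11163 and 9146 to 10269). Of the microglia markers 9 of 12 were higher (288 to 383 and 1002 to 1236 CPM), as were all 8 tested T cell markers (6.08 to 6.77 and 52.7 to 60.7 CPM), with Cd3d and Cd8b listed at 0 in the sham group. Several T cell rows had nearly no sham counts, so only BCP counts let them be tested, and their direction was close to fixed. Red blood cell markers were higher in 5 of 5, and B and plasma cell markers had no tested gene. Of 7 neutrophil markers only 1 had enough counts to be tested, again through its BCP counts alone, and it was called higher. Astrocyte markers were higher in 1 and lower in 3 of 7, dorsal root ganglion and nerve root markers higher in 1 and lower in 3 of 7, and skeletal muscle markers lower in 1 of 4. Lumbar Hox genes were lower in 1 of 4, and no endothelial (7 tested), meningeal (5 tested) or ependymal marker (4 tested) was called, with 0 of them at an unadjusted p under 0.05 by edgeR and 0 called by DESeq2. The part of these shifts in the differences of chaperone genes was not tested.

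Levels of different genes were compared per transcript length, in the deposited FPKM. Hsp90ab1, the constitutive cytosolic HSP90, was the highest member at 478 FPKM in sham and 473 in BCP rats. Hspa5 (BiP), the HSP70 of the ER, followed at 189 and 209 FPKM, and Hsp90b1 (GRP94), the HSP90 of the ER, at 145 and 158 FPKM. Dnaja1, a cytosolic J-domain partner of HSP70, led class A at 97.4 FPKM in sham rats. Dnajb2 led class B at 81.5 FPKM, Dnajc5 led class C at 66.6 FPKM, and the mitochondrial chaperonin Hspd1 stood at 77.9 FPKM. Hspb1 (HSP27) led the small heat shock proteins at 44.6 FPKM, Bag6 the BAG family at 41.7 FPKM, Hspbp1 the other binding proteins at 21.8 FPKM and Hsf1 the heat shock factors at 13.3 FPKM. These values are of sham rats. In BCP rats Hsf2 at 12.8 FPKM stood above Hsf1 at 11.7, and Dnajc8 at 65.7 above Dnajc5 at 63.6. The row of the stress-inducible Hspa1b was far below these leading members at 2.96 FPKM in sham rats and 1.32 in BCP rats. This ranking is of rows as deposited. Hspa1a, Hsp90aa1 and HSC70 could not be placed in it, and reads shared by Hspa1a and Hspa1b may be missing, as described below.

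**Figure D2:**
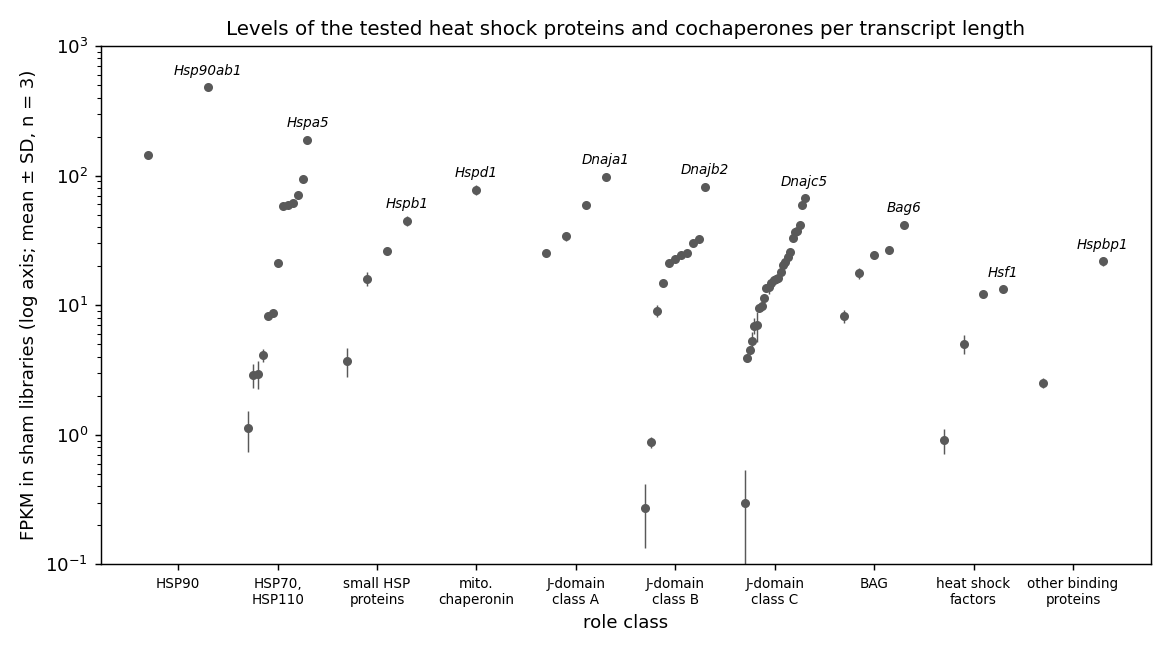
Each point is the mean FPKM of a tested member in the 3 sham libraries, on a log axis that starts at 0.1, with its SD, arranged by role class, and the highest member of each class is named. Hsp90ab1 at 478 FPKM and Hspa5 at 189 FPKM stand at the top of their classes, and Hsf1 leads the heat shock factors at 13.3 FPKM.

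Heat shock factors bind inverted repeats of the bases GAA, so the promoters of members were searched for alternating GAA and TTC units with 2 free bases between them, on both strands. RefSeq windows of the assembly GRCr8, from 250 bases before to 50 bases after a gene's start, were given for 65 members and 33469 genes. A run of 3 units lay in the windows of 3 members, Dnaja1, Hspd1 and Hsph1 (4.62%), and in 0.798% of all windows. A run of 2 units, which includes the former, lay in 15 members (23.1%) and in 15.9% of all windows. Runs of 3 units were in 1 of the 10 lower members that had a window, in 0 of 6 higher members and in 2 of 40 members that were not called. Runs of 2 units were in 5 of these lower members, 0 of the higher members and 9 of those not called. A link between runs and calls was not tested, and uncalled members with 2 units are not shown. Hspa1b and Hsf1 had no window. The stretches shown are upstream of the start, 5′ to 3′ on the strand of the gene, for the 5 lower members with such a run and for Hspd1, the uncalled member whose 3 units lie upstream, and capitals mark the units.

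Hsph1, chr12:10427288-10427367 of GRCr8, plus strand
Hsph1: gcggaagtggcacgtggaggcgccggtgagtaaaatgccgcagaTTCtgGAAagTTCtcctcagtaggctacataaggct
Hspd1, chr9:64084208-64084287 of GRCr8, minus strand
Hspd1: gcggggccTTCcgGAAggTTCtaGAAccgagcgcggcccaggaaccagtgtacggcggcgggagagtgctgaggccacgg
Dnajb1, chr19:41431142-41431221 of GRCr8, minus strand
Dnajb1: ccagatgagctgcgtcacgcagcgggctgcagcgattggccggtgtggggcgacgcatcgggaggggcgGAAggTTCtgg
Hspa2, chr6:100864348-100864427 of GRCr8, plus strand
Hspa2: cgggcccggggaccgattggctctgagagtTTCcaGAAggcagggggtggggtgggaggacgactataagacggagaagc
Hspb6, chr1:94934122-94934201 of GRCr8, plus strand
Hspb6: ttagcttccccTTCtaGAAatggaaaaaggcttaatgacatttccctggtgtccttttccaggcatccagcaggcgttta
Dnajc27, chr6:32787985-32788064 of GRCr8, plus strand
Dnajc27: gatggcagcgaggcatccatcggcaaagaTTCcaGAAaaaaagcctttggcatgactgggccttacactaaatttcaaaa

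In Hspd1 the 2 overlapping matches join into 4 units, in Hsph1 the 3 units lie just ahead of the start, and the other stretches hold 2 units each. Such a match is a description of the letters, and binding was not measured.

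Neither tested HSP90 gene was called by edgeR or by DESeq2, and 0 had an unadjusted p under 0.05. Hsp90ab1 was at 1613, 1588 and 1584 CPM in the sham libraries and 1503, 1570 and 1537 CPM in the BCP libraries, a log2 fold change of -0.05 ± 0.038 (SE). All its BCP libraries were below all sham libraries, yet the difference did not pass the test (adjusted p = 0.331, edgeR's quasi-likelihood test). Hsp90b1 had a log2 fold change of 0.09 ± 0.045 with overlapping groups. The row of the inducible cytosolic HSP90, Hsp90aa1, was listed at 0 in every library. It lies inside the span of the dynein gene Dync1h1, and a second row described as HSP 90-alpha held 7 to 20 counts per library, so the level of this chaperone could not be read from the table.

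Among the HSP70 and HSP110 genes 5 of 13 tested members were lower in BCP rats and 0 were higher by edgeR. Of all tested genes, edgeR called 12.1% lower and 15.8% higher. In this class 1 gene was higher at an unadjusted p under 0.05 and 0 were called higher by DESeq2. The largest decrease was that of Hspa1b, the stress-inducible HSP70 gene of the major histocompatibility region, at chr20:4877324-4879779 of Rnor_6.0. It was at 9.15, 7.47 and 5.54 CPM in the sham libraries and at 2.45, 3.72 and 3.41 CPM in the BCP libraries. The sham values rest on 120, 107 and 82 counts and the BCP values on 29, 52 and 45 counts. Every BCP library was below every sham library, and Hspa1b fell by 56.3% (log2 fold change -1.19 ± 0.22, adjusted p = 0.000364, edgeR's quasi-likelihood test). The log2 fold change stayed between -1.37 and -1.02 with any single library left out. The nearly identical gene Hspa1a was listed at 0 in all 6 libraries, so reads of the pair may have been assigned to one row or dropped. Hspa1b also lies within the annotated spans of the class I genes RT1-CE7 and RT1-CE4, which were higher in BCP rats (log2 fold change 1.98 each), and of RT1-CE2 (-1.41, adjusted p = 0.433, edgeR).

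Hspa1l, the neighbouring HSP70 gene of the same region at chr20:4959294-4964963, was at 8.77, 6.08 and 6.42 CPM in the sham libraries and at 4.73, 3.57 and 2.95 CPM in the BCP libraries. The groups did not overlap, and it fell by 47.1% (log2 fold change -0.92 ± 0.21, adjusted p = 0.00266, edgeR). It passed 2-fold when sham library 2 or BCP library 1 was left out (log2 fold change -1.02 and -1.10). Hspa2, an HSP70 gene of testis and brain, was at 44.8, 41.8 and 42.2 CPM in sham and at 35.2, 38.2 and 30.8 CPM in BCP libraries. It was lower in 3 of 3 BCP libraries and fell by 19.0% (adjusted p = 0.01, edgeR), a call lost without BCP library 3 (adjusted p = 0.0753). Hspa12a, a distant relative of HSP70 and by count among the most abundant members, was at 385, 410 and 382 CPM in sham and 367, 335 and 341 CPM in BCP libraries. Its groups stood apart by a narrow margin, and it fell by 11.4% (adjusted p = 0.00831, edgeR). The call was lost without sham library 2 (adjusted p = 0.0526, edgeR) and without BCP library 2 (adjusted p = 0.0551).

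Hsph1 (HSP105), which has 3 units upstream and is an HSP110 protein that exchanges the nucleotide of HSP70, was at 324, 332 and 336 CPM in the sham libraries and at 300, 297 and 288 CPM in the BCP libraries. The decrease was small but larger than the spread between libraries, with a log2 fold change of -0.16 ± 0.043 (adjusted p = 0.00642, edgeR). The other HSP110 genes were not called, Hspa4 at 0.09 ± 0.049 and Hspa4l at -0.10 ± 0.047 on the log2 scale. The ER and mitochondrial HSP70 genes were not called either. Hspa5 was at 465, 494 and 514 CPM in sham and 559, 532 and 494 CPM in BCP libraries, with overlapping groups (log2 fold change 0.11 ± 0.050, adjusted p = 0.13, edgeR). Hspa9 (mortalin), which draws proteins into mitochondria, had a log2 fold change of 0.03 ± 0.045.

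The constitutive HSC70 could not be measured with certainty. The row named Hspa8 held 21 to 48 counts per library and lies on chromosome 5, whereas RefSeq places the gene on chromosome 8 and lists 33 pseudogenes of it. A row without a symbol on chromosome 8 (AABR07070032.1), described as heat shock cognate 71 kDa protein, stood at 13.7 FPKM in each group. A row on chromosome 11 (LOC680121), described as similar to heat shock protein 8, stood at 87.5 FPKM in sham and 94.1 in BCP rats. None of the 3 rows was called, with log2 fold changes of -0.05 ± 0.30, -0.04 ± 0.11 and 0.07 ± 0.052, and reads of HSC70 may be divided among them.

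The J-domain proteins of classes A and B comprised the closest partners of HSP70. No class A gene was called by edgeR or by DESeq2, with 1 at an unadjusted p under 0.05. This gene, Dnaja4, lay just outside the threshold (log2 fold change -0.19 ± 0.070, adjusted p = 0.0515, edgeR). Dnaja1 was at -0.04 ± 0.050. In class B, 2 of 11 tested genes were lower and 1 was higher, where 12.1% of all tested genes were called lower and 15.8% higher. Dnajb1 (HSP40), the stress-inducible partner of HSP70, was at 60.4, 54.4 and 57.4 CPM in the sham libraries and at 47.6, 46.2 and 48.0 CPM in the BCP libraries. The groups were separate, and it fell by 17.6% (log2 fold change -0.28 ± 0.068, adjusted p = 0.00393, edgeR). Dnajb2, a J-domain protein of neurons that binds ubiquitin and directs clients to the proteasome, was at 167, 164 and 164 CPM in sham and at 126, 130 and 138 CPM in BCP libraries. Its sham libraries were within a few CPM of each other and all BCP libraries were lower, a decrease of log2 -0.33 ± 0.049 with the smallest adjusted p of the lower members (3.66e-05, edgeR).

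Dnajb11 (ERdj3), a J-domain partner of BiP in the ER, was at 62.6, 57.1 and 58.9 CPM in sham and 71.9, 69.2 and 62.3 CPM in BCP libraries. It rose by log2 0.19 ± 0.068 (adjusted p = 0.0458, edgeR), but its lowest BCP library was below its highest sham library, and the call held without sham library 1 or BCP library 3 but not without any other library. It also held in 4 of 8 other alternatives, and DESeq2 did not call it (adjusted p = 0.0778). Dnajb5 lay just outside the threshold at -0.22 ± 0.085 (adjusted p = 0.0652, edgeR).

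Class C holds J-domain proteins of many compartments, and here 6 of 26 tested genes were higher and 3 were lower. Of all tested genes, 15.8% were called higher and 12.1% lower. Dnajc13 (RME-8), which acts on early endosomes in the sorting of receptors, was at 134, 129 and 134 CPM in the sham libraries and at 171, 190 and 165 CPM in the BCP libraries. It had the smallest adjusted p of all members, with no overlap between the groups and a rise of 33.0% (log2 fold change 0.41 ± 0.054, adjusted p = 7.01e-06, edgeR). Dnajc25 was at 5.49, 6.22 and 5.74 CPM in sham and at 9.05, 10.5 and 8.33 CPM in BCP libraries. All BCP libraries were higher, and it rose by 59.8% (adjusted p = 0.0031, edgeR). Dnajc22 had the largest fold change and few counts, 11, 2 and 5 for sham against 23, 23 and 16 for BCP rats. In CPM it was at 0.839, 0.140 and 0.338 against 1.94, 1.64 and 1.21. Its sham counts alone would not have passed the filter, so the row was tested because of its level in BCP libraries. The groups were separate (log2 fold change 1.87 ± 0.47, adjusted p = 0.00461, edgeR), and the log2 fold change ranged from 1.45 without sham library 2 to 2.68 without sham library 1.

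The other higher class C genes changed little. Dnajc7, a cochaperone that binds both HSP70 and HSP90, was at 109, 113 and 110 CPM in sham and 131, 122 and 121 CPM in BCP libraries. Dnajc9, a histone cochaperone, was at 28.0, 27.7 and 24.3 CPM in sham and 29.5, 36.2 and 31.8 CPM in BCP libraries. Dnajc2, which sits on the ribosome at the exit of nascent chains, was at 33.5, 26.3 and 29.7 CPM in sham and 36.9, 35.8 and 35.4 CPM in BCP libraries. None of these 3 genes had overlapping groups, and they rose by log2 0.17 ± 0.052, 0.29 ± 0.095 and 0.27 ± 0.090 (adjusted p = 0.0182, 0.0271 and 0.0282, edgeR). With a library left out, Dnajc7 and Dnajc9 passed in 3 of 6 fits and Dnajc2 in 1 of 6. Dnajc7 was lost without sham library 1, sham library 3 or BCP library 1, Dnajc9 without sham library 3, BCP library 2 or BCP library 3, and Dnajc2 without any library other than sham library 1. Dnajc7 was also lost with upper quartile scaling (adjusted p = 0.0606, edgeR), and Dnajc9 was at the threshold by DESeq2 (adjusted p = 0.05).

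Among the lower class C genes, Dnajc6 (auxilin), the neuronal J-domain protein that recruits HSP70 to uncoat clathrin vesicles, was at 282, 282 and 292 CPM in the sham libraries and at 248, 240 and 243 CPM in the BCP libraries. The spread within each group was narrow, and it fell by 14.6% (log2 fold change -0.23 ± 0.043, adjusted p = 0.000427, edgeR). Dnajc4 was at 14.3, 12.2 and 12 CPM in sham and at 8.45, 9.50 and 7.80 CPM in BCP libraries. It was lower in every BCP library and fell by 32.9% (adjusted p = 0.00365, edgeR). Dnajc27, in which a J-domain follows a small GTPase domain, was at 172, 182 and 176 CPM in sham and 162, 150 and 162 CPM in BCP libraries (log2 fold change -0.17 ± 0.049, adjusted p = 0.0157, edgeR). The call was lost without sham library 2 (adjusted p = 0.0651, edgeR), without BCP library 2 (adjusted p = 0.117) and with scaling by library size alone (adjusted p = 0.0664). Dnajc5 (cysteine string protein), the J-domain protein of synaptic vesicles, was not called, at -0.11 ± 0.062 with overlapping groups.

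**Figure D3:**
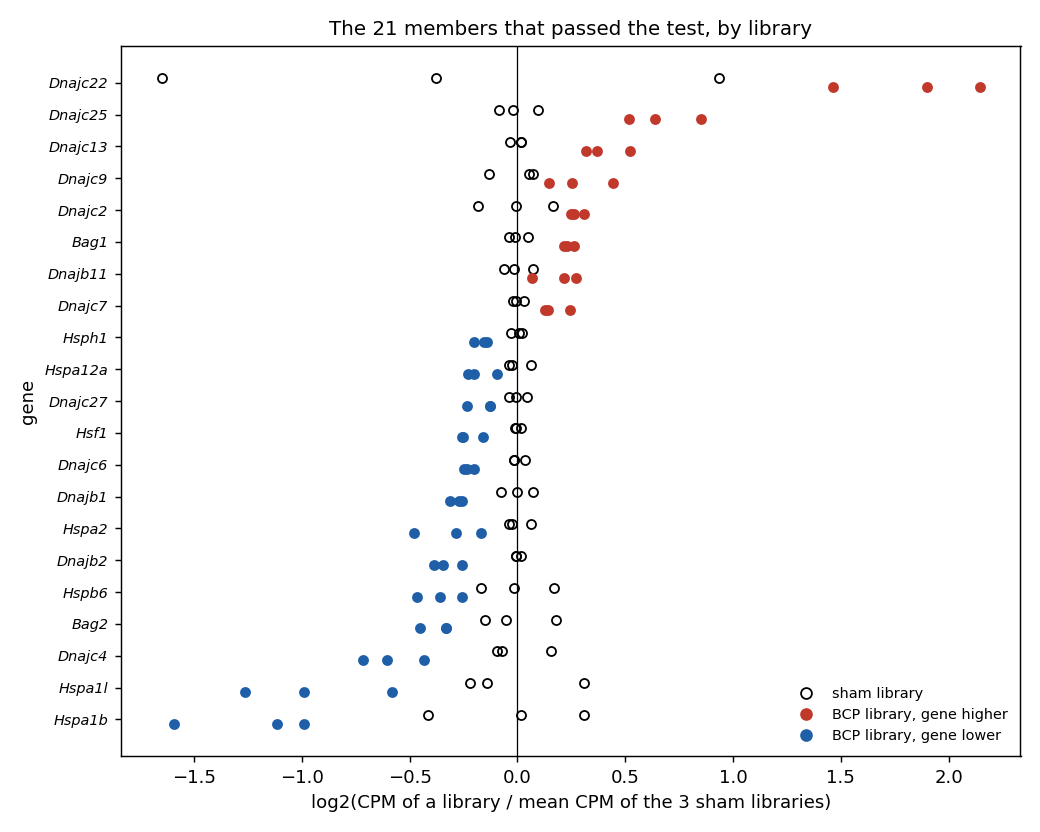
Each point is a library, placed by the log2 ratio of its CPM to the mean CPM of the 3 sham libraries, for the 21 members that passed the test. Open circles are sham and filled circles BCP libraries, blue where the gene was lower and red where it was higher. The groups are separate for every gene except Dnajb11.

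Members whose symbol is Hspb and a number were classed as small heat shock proteins by symbol alone. Of the 4 tested, 1 was lower and 0 were higher, where 12.1% of all tested genes were called lower and 15.8% higher. Hspb6 (HSP20) was at 18.9, 21.0 and 23.9 CPM in the sham libraries and at 17.8, 16.6 and 15.4 CPM in the BCP libraries. Its groups were close but did not overlap, and it fell by 22.0% (log2 fold change -0.36 ± 0.11, adjusted p = 0.018, edgeR), a call that was lost without sham library 3, BCP library 2 or BCP library 3 (adjusted p = 0.119, 0.0501 and 0.0835). Hspb1, which caps aggregating proteins and binds actin, had a log2 fold change of -0.08 ± 0.082, and Hspb8, the partner of Bag3 in clearing aggregates by autophagy, one of -0.04 ± 0.071. The mitochondrial chaperonin Hspd1 (HSP60) was at 0.02 ± 0.066.

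The BAG proteins release clients from HSP70 and link it to degradation. Of the 5 tested, 1 rose and 1 fell, where 15.8% of all tested genes were called higher and 12.1% lower. Bag1, which connects HSP70 to the proteasome, was at 36.8, 34.6 and 35.3 CPM in sham and at 42.7, 41.7 and 41.3 CPM in BCP libraries. Both groups were tight and separate, and it rose by 17.8% (adjusted p = 0.022, edgeR). The call was lost in 3 of the 6 fits with a library left out, those without sham library 2, sham library 3 or BCP library 2 (adjusted p = 0.0752, 0.0659 and 0.0558, edgeR). Bag2, which restrains the ubiquitin ligase CHIP, was at 11.7, 12.5 and 14.7 CPM in sham and at 10.3, 10.3 and 9.47 CPM in BCP libraries. It fell by 23.0% (adjusted p = 0.0407, edgeR), a call that held only without sham library 1 among the 6 fits with a library left out, and in 5 of 8 other alternatives, not with DESeq2 (adjusted p = 0.0994). Bag3 was at -0.09 ± 0.071 and Bag6 at -0.02 ± 0.047 on the log2 scale.

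Hsf1, the transcription factor of the cytosolic heat shock response, was at 32.3, 32.5 and 33.0 CPM in the sham libraries and at 27.3, 29.2 and 27.4 CPM in the BCP libraries. All BCP libraries were lower, and the decrease of log2 -0.22 ± 0.082 was at the edge of the threshold (adjusted p = 0.0487, edgeR). It passed in 0 of the 6 fits with a library left out and in 2 of 8 other alternatives, with an adjusted p = 0.124 by DESeq2. Hsf2 was at 0.04 ± 0.083, and Hsf4 and Hsf5 were not called. Hspbp1 and Hspbap1, the tested members that bind heat shock proteins, had log2 fold changes of -0.17 ± 0.10 and 0.24 ± 0.14 and were not called.

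The 12 members without a test were of both kinds, listed at 0 or nearly so. Hspa1a, Hsp90aa1, Bag5, Dnajb7, Dnajb8 and Dnajc5g were listed at 0 in all 6 libraries. Hspb2, Hspb3, Hspb7, Hspb9, Dnajc5b and Hsf2bp had too few counts, at up to 0.908 CPM in a library. The chaperonin partner of Hspd1, Hspe1, was sought by its symbol, but no row of that symbol was found.

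Genes of the same pathways outside the name rule were read from the same fit, from lists that were also drawn up with earlier results known. Of all tested genes, 12.1% were called lower and 15.8% higher by edgeR. Of 17 tested targets of heat shock factor 1, a list that holds 10 tested members, 6 were lower and 0 higher by edgeR and by DESeq2, also 0 higher at an unadjusted p under 0.05, with a median log2 fold change of -0.09. The list names 21 genes, of which 19 had a row, and Hspa1a and Hsp90aa1 were listed at 0. Its Hspa8 row is the uncertain one on chromosome 5. The lower targets were Hspa1b, Dnajb1 and Hsph1, and outside the name rule Cryab, Fkbp4 and Ahsa1. Cryab (alpha-B crystallin), a small heat shock protein that oligodendrocytes also make in quantity, was at 85.3, 77.8 and 69.6 CPM in sham and at 53.9, 50.2 and 57.9 CPM in BCP libraries. No BCP library reached the lowest sham library, and it fell by log2 0.52 (SE 0.076, adjusted p = 3.52e-05, edgeR). Fkbp4, an immunophilin that joins HSP90 to steroid receptors, fell by log2 0.20 and Ahsa1, which stimulates the ATPase of HSP90, by log2 0.17.

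Over the chaperones and cochaperones outside the name rule as a list, 5 of 33 tested genes were lower and 1 was higher, with a median of -0.07. The share of lower genes was near the 12.1% of all tested genes, and 15.8% of all tested genes were higher. Stub1 (CHIP), the ubiquitin ligase that acts on clients of HSP70, fell by log2 0.21 ± 0.056, from 88.2, 86.5 and 89.6 CPM in sham to 74.7, 79.5 and 73.5 CPM in BCP libraries. Ahsa2 was the fifth. The higher gene was Ptges3 (p23), an HSP90 cochaperone, which rose by log2 0.19 ± 0.051. The cytosolic chaperonin TRiC, which folds actin and tubulin, had 3 of 8 subunits higher (Cct4, Tcp1 and Cct2, by log2 0.22, 0.21 and 0.13) and 0 lower, with a median of 0.12. None of its subunits was lower at an unadjusted p under 0.05 by edgeR or called lower by DESeq2, which called 2 higher.

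ER chaperones and genes of the unfolded protein response were higher in 10 of 25 tested and lower in 0 by edgeR (8 and 0 by DESeq2, 14 and 0 at an unadjusted p under 0.05), with a median of 0.14. Among the 20 that are not members of the named group, 9 were higher. By edgeR 15.8% of all tested genes were higher and 12.1% lower. Pdia3, a disulfide isomerase of glycoproteins, was at 260, 252 and 261 CPM in sham and at 337, 349 and 353 CPM in BCP libraries. The gap between the groups was wider than the range within either (log2 fold change 0.43 ± 0.043, adjusted p = 2.32e-07, edgeR). Edem1, which sends misfolded glycoproteins to degradation, rose by log2 0.60 ± 0.088, and Calr (calreticulin), a lectin chaperone, by log2 0.32 ± 0.049. Of the 5 tested members on this list only Dnajb11 was called, while Hspa5, Hsp90b1, Dnajc3 and Dnajb9 had log2 fold changes of 0.11, 0.09, 0.15 and -0.10.

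**Figure D4:**
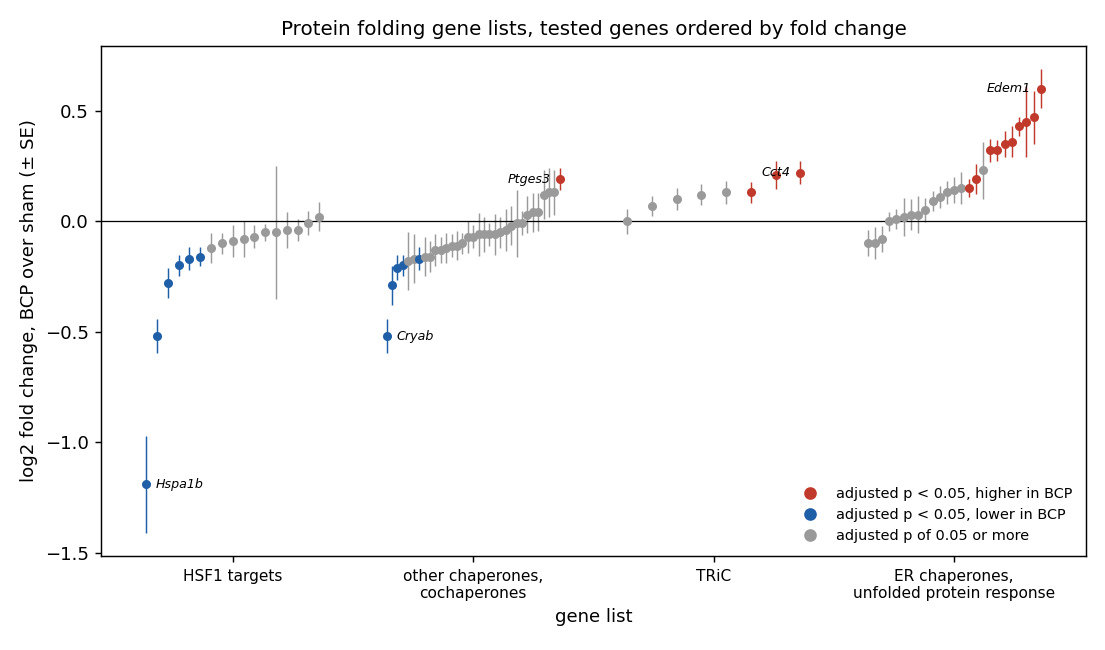
Each point is the log2 fold change in BCP over sham rats of a tested gene, with its standard error, in 4 gene lists of protein folding, ordered within each list. Called genes were on the lower side in the list of heat shock factor 1 targets (6 of 17) and on the higher side in the ER list (10 of 25) and TRiC (3 of 8). Among all tested genes 12.1% were called lower and 15.8% higher.

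Lists that follow cell activity and stress hormones were read in the same way, beside 15.8% of all tested genes called higher and 12.1% called lower. Immediate early genes were higher in 5 and lower in 1 of 17 tested. Log2 fold changes were 1.19 for Junb, 1.19 for Zfp36, 1.35 for Egr2, 0.76 for Btg2 and -0.67 for Arc. Egr2 had 12, 2 and 9 counts in sham and 14, 19 and 22 in BCP libraries. The sham counts of Egr2 alone would not have passed the filter, so it was tested because of its BCP libraries. Glucocorticoid targets were lower in 4 and higher in 0 of 10 tested rows by edgeR and by DESeq2, with 0 higher at an unadjusted p under 0.05 and a median log2 fold change of -0.14. Per1 was at -0.58, Ddit4 at -0.45 and Tsc22d3 at -0.23. The part of either in the members' differences was not tested.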

How the data were processed

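RNA-seq libraries of 3 sham-operated and 3 BCP rats were grouped by their labels. The authors mapped reads that passed Seqtk to Rnor_6.0 by HISAT2 2.0.4 and computed FPKM by StringTie 1.3.0, and they deposited unnormalized counts and FPKM for each gene. The counting program and its use of strand are not given in the sources used here, so reads of overlapping genes cannot be separated. Counts totaled 11779485 to 15004290 per library and may include PCR duplicates. The sources do not say that each library came from 1 rat, so p-values measure the spread between these libraries.

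All genes that passed edgeR's filter by expression were tested on the counts (edgeR 4.0.16, R 4.3.3, TMM factors 0.982 to 1.02, robust quasi-likelihood test, Benjamini-Hochberg adjustment). Called genes had an adjusted p under 0.05, and those over 2-fold were also counted, after the authors' threshold. CPM are deposited counts per library total times its TMM factor. On simulated counts of BCP against sham (14792 genes), 97% of genes changed 2-fold were recovered and 6.25% of calls were false. The simulation gave all genes a common dispersion and changed few of them. Its rates therefore do not carry over to the smaller changes and unequal spreads of the members. Within groups no libraries were duplicates (chi-square per degree of freedom 3.48 to 6.04).

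The members and gene lists were chosen with earlier results of these data known. The text names called members, the highest of each class by FPKM and a set of main chaperones, and of the pathway lists the called genes over 2-fold and the 3 smallest p-values per direction. Names outside this rule (Dnaja4, Dnajb5, Dnajc8, Hspa4l, Dnajc3, Dnajb9, Hsf4, Hsf5, Hspbap1, Ahsa1, Ahsa2, Cd3d, Cd8b, Dync1h1, RT1-CE2, RT1-CE4, RT1-CE7, the untested members and the rows of HSC70 and HSP 90-alpha) were added after their values were seen. Alternatives were DESeq2 1.42.0, 3 other scalings, 2 filters, no robust fit, a replicate block and each library left out. Promoters came from RefSeq, and 83 members matched a RefSeq symbol. The lncRNA table was not used here. Plots were made in Python 3.11.15 (matplotlib 3.10.9).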

Additional observations from a re-analysis of the deposited data

How the results depend on the processing

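No log2 fold change of a named member changed sign under an alternative where the member was called, and 10 of the 21 called members passed under every alternative in which they could be fitted (Hspa1b, Hspa1l, Hsph1, Dnajb1, Dnajb2, Dnajc4, Dnajc6, Dnajc13, Dnajc22 and Dnajc25). With each library left out in turn, the number of higher members was 4 to 7 and of lower members 8 to 12, against 8 and 13. Over 2-fold there was 1 higher member in each such fit and 1 to 2 lower members, where Hspa1l joined Hspa1b. Requiring 10 counts in every library left 0 members more than 2-fold higher, because Dnajc22 was not tested. The median log2 fold change of members was -0.066 with upper quartile scaling and 0.009 with library size alone, and -0.041 to -0.028 with a library left out. Lower targets of heat shock factor 1 numbered 5 to 6 and higher ER genes 7 to 10 with a library left out. The share of promoters with the element was 23.1% with 2 units in place of 3. The replicate block gave 7 higher and 11 lower members. Same-numbered libraries did not clearly deviate together (correlations of -0.105, 0.0439 and -0.0353). With 3 libraries per group this check cannot exclude a pairing, and the labels state none. Depth limits genes of few counts, such as Dnajc22 with 2 to 23 per library.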
